A study of Mus musculus with 2 samples.

Results

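The neuregulins and the ErbB receptors were examined in single-cell RNA libraries from the cortex of 2 mouse embryos at E16.5. The 8 genes were chosen by name out of the 32285 genes in the deposited tables. They are the ligand genes *Nrg1*, *Nrg2*, *Nrg3* and *Nrg4* and the receptor genes *Egfr*, *Erbb2*, *Erbb3* and *Erbb4*. Both embryos, numbered 4 and 5, are labelled WT, were controls of an *Eomes*-Cre line and received no treatment that the labels name. The sample titles carry the line name EoMltt3 and the series' text calls the embryos EomesMllt3 controls, but the labels do not say which alleles of that line these embryos carried. Each embryo gave 1 library and no treatment or genotype was varied, so the question asked here was which cell classes of the same cortex held ligand and which held receptor transcripts.

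Neuregulins are growth factors with an EGF-like domain that bind receptor tyrosine kinases of the ErbB family. ErbB4 binds neuregulins and signals by itself, ErbB3 binds them but has little kinase activity, ErbB2 has no known ligand of its own and acts as a partner of the others, and the EGF receptor binds EGF-type ligands rather than neuregulins. In the developing forebrain, interneurons that migrate tangentially into the cortex are known to carry ErbB4, for which Nrg1 and Nrg3 act as guidance cues. Nrg1 has also been linked to the maintenance of radial glial cells (RGCs).

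Transcripts were counted as unique molecular identifiers (UMIs), each standing for 1 captured molecule, and were summed for each embryo and each cell class. A level is the gene's share of the UMIs of that class, scaled to counts per 1000000 UMIs (CPM). Embryo 4 held 12825 barcodes with 124318613 UMIs and embryo 5 held 12289 barcodes with 117679925 UMIs. Of these, 9932 and 10416 cells were kept, with medians of 10027 and 8839.5 UMIs, and 27 of the kept barcodes occurred in both libraries. Cells were clustered without the 8 genes and were named by marker genes. Excitatory neuron-like cells made up 52.6% and 54.2% of the kept cells, RGC-like cells 14.5% in both, and intermediate progenitor (IPC)-like cells 8.27% and 8.32%. Interneuron-like cells, the sum of the MGE and CGE interneuron-like clusters (named after the medial and caudal ganglionic eminence), made up 8.77% and 7.69%. Some clusters had markers from the naming lists among their leading genes. Examples are *Eomes* and *Neurog2* in the larger IPC-like cluster and *Sst* and *Maf* in the MGE interneuron-like cells. Others, such as the deep-layer neuron-like and the cycling IPC-like cluster, had none. Because the same lists gave the names, these markers are no separate check of them. No name could be given to 2 clusters, the larger of which (594 and 603 cells) was led by *Tfap2d* and *Nr2f2*. This larger cluster scored highest as excitatory neuron (0.697, against 0.285 for IPC). Its leading genes held markers of other lists and no excitatory one, so the naming rule left it out of the excitatory sums. No test here can tell the embryos' biology from the library preparation. The p-values use a spread between the 2 embryos that each fit shares over all its classes. Where a fit held further classes, this is not the spread of the compared classes alone.

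The genes differ widely in length, and levels were therefore compared between cell classes and not between genes. On mm10 (RefSeq, GRCm38.p6), *Nrg1* spans chr8:31807452-32891609 (1084158 bases), *Nrg3* chr14:38365102-39473235 (1108134 bases) and *Erbb4* chr1:68031884-69108576 (1076693 bases). *Egfr* spans chr11:16752203-16913907 (161705 bases), *Nrg4* chr9:55220222-55283654 (63433 bases), *Erbb2* chr11:98412484-98437716 (25233 bases) and *Erbb3* chr10:128567523-128589635 (22113 bases). Whether reads in introns were counted is not given in the sources used here, and long genes can gather more of them.

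**Figure D1:**
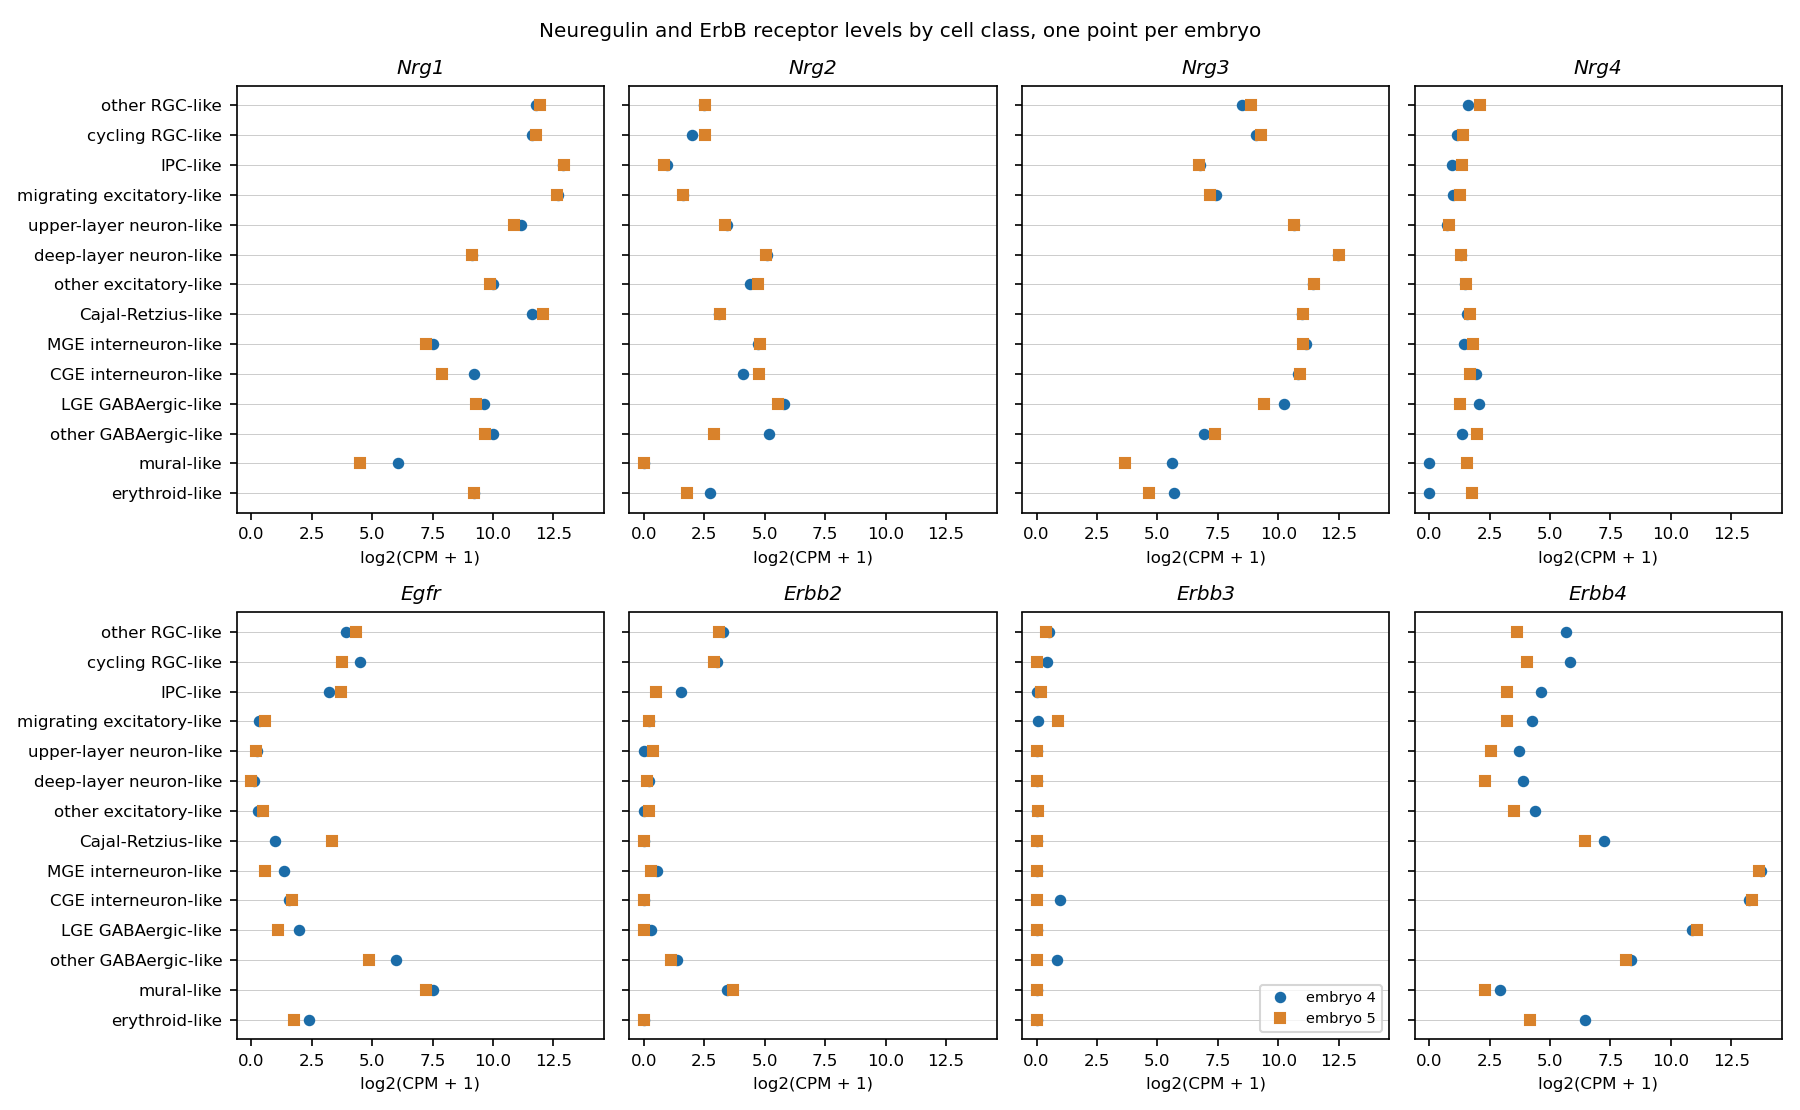
Level of each of the 8 genes as log2(CPM + 1) on the x axis in 14 cell classes on the y axis, with 1 point per embryo (circle, embryo 4; square, embryo 5). *Erbb4* stands highest in MGE and CGE interneuron-like cells, *Nrg3* in deep-layer neuron-like cells, *Nrg1* in IPC-like cells and *Egfr* in mural-like cells.

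Among the ligands, *Nrg1* was detected in almost every IPC-like cell and reached its highest level there. The level was 7549 (embryo 4) and 7837 CPM (embryo 5) in IPC-like cells, against 3336 and 3682 CPM in RGC-like cells. Excitatory neuron-like cells held 2919 and 2672 CPM, and interneuron-like cells 259 and 165 CPM. The 4 classes did not overlap between embryos, with IPC-like cells on top and interneuron-like cells at the bottom. After thinning each cell to 2000 UMIs, 97.5% and 97.7% of IPC-like cells still held an *Nrg1* UMI. Because the excitatory class is large, it nevertheless held 53.5% and 51.2% of all *Nrg1* UMIs in kept cells, against 20.1% in the IPC-like cells of each embryo.

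Within the excitatory class, *Nrg1* and *Nrg3* ran in opposite directions. *Nrg1* was at 6584 and 6454 CPM in migrating excitatory neuron-like, 2301 and 1899 CPM in upper-layer and 561 and 562 CPM in deep-layer neuron-like cells. *Nrg3*, a ligand of ErbB4, was at 170 and 144 CPM, 1609 and 1607 CPM, and 5687 and 5851 CPM in the same 3 subclasses. The order of the subclasses was thus reversed between both ligands, with no overlap of embryos at any step. The 3 migrating clusters themselves spread from 48.2 to 355 CPM of *Nrg3*, and from 5318 to 7653 CPM of *Nrg1*. The cluster with the least *Nrg3* was led by *Unc5d* and *Neurod1*, genes of newly born neurons, and was also the one with the most *Nrg1*. Excitatory neuron-like clusters that could not be given a layer held 1038 and 944 CPM of *Nrg1* and 2765 and 2854 CPM of *Nrg3*. Among them, a cluster led by *Slit3* and *Crym* leaned to the deep-layer markers (score 0.390, under the limit of 0.5). It held 1253 to 1326 CPM of *Nrg3*, below the upper-layer neuron-like cells. At resolution 2 a cluster led by the same genes was named deep-layer neuron-like (score 0.599). High *Nrg3* was thus not shared by all clusters that leaned to deep layers.

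**Figure D2:**
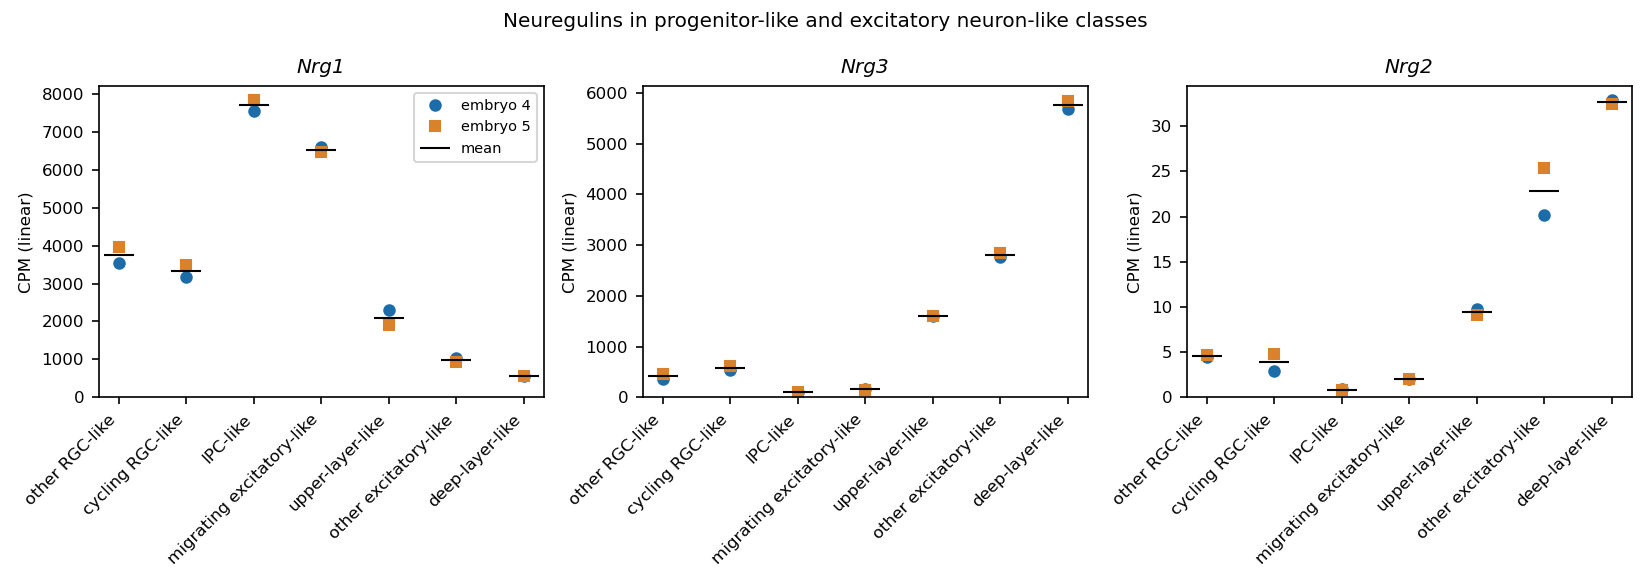
*Nrg1*, *Nrg3* and *Nrg2* in CPM (linear y axes that start at 0, with a scale of their own in each panel) in progenitor-like and excitatory neuron-like classes, with 1 point per embryo and the mean as a bar. *Nrg1* peaks at 7693 CPM in IPC-like cells and is lowest in deep-layer neuron-like cells, where *Nrg3* peaks at 5769 CPM and *Nrg2* at 32.6 CPM.

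The difference between layers was tested in a fit over 12 neural subclasses with edgeR's quasi-likelihood test. The deep-layer class was the cluster led by *Hs3st4* and *Rgs6*, without the *Crym* cluster described above. *Nrg1* was lower in deep-layer than in upper-layer neuron-like cells by a log2 fold change of -1.81 ± 0.23 (SE, n = 2 embryos, edgeR adjusted p = 2e-06). *Nrg3* was higher by 1.94 ± 0.18 (edgeR adjusted p = 2.7e-08). *Nrg2*, a ligand of ErbB3 and ErbB4, was higher by 1.88 ± 0.27 (edgeR adjusted p = 9.6e-06), from 9.82 and 9.15 CPM in upper-layer to 32.9 and 32.4 CPM in deep-layer neuron-like cells. These were the calls among 7 members tested, 2 higher and 1 lower, where 17.8% of all 16250 genes tested were called higher and 15% lower. Over the alternatives, other cluster resolutions included, the log2 fold change ranged from -2.87 to -1.34 for *Nrg1* and from 1.26 to 2.88 for *Nrg3*. *Nrg4*, *Egfr*, *Erbb2* and *Erbb4* did not pass the test between layers.

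*Nrg3* was not confined to excitatory neurons. Interneuron-like cells held 2183 and 2074 CPM of *Nrg3*, close to the 2419 and 2495 CPM of the excitatory class as a whole. The difference was small, with a log2 fold change of -0.30 ± 0.10 (SE, n = 2, edgeR adjusted p = 0.031), and -0.15 without embryo 5. It was not called under 4 of 10 alternatives, among which the adjusted p ran from 0.0026 to 0.12, the highest with cells thinned to 2000 UMIs. By subclass, the MGE interneuron-like cells (2269 and 2110 CPM) stood below deep-layer neuron-like cells and above upper-layer neuron-like cells. Excitatory neuron-like cells held 80.6% and 82.2% of all *Nrg3* UMIs in kept cells, and interneuron-like cells 6.94% and 6.35%.

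In progenitors the pattern of the ligands was uneven. RGC-like cells held 458 and 557 CPM of *Nrg3* and IPC-like cells 108 and 105 CPM, against 47.9 and 11.7 CPM in mural-like cells (the contractile cells of vessel walls). After thinning, 39.4% and 43.3% of RGC-like cells, 15.3% and 11.8% of IPC-like cells and 1.92% and 4.35% of mural-like cells held an *Nrg3* UMI. The median depths of the unthinned mural-like cells were 10553 and 10408.5 UMIs. The RGC-like and IPC-like shares were thus above the mural-like shares in both embryos, but the latter come from only 52 and 46 cells. Erythroid-like cells held 50.3 and 24.4 CPM of *Nrg3*. Whether the low IPC-like values were expression or RNA from other cells was not tested.

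*Nrg2* was low in all classes and was highest in the LGE GABAergic-like cells (named after the lateral ganglionic eminence), with 54.0 and 46.4 CPM. It was at 25.6 and 27.3 CPM in MGE interneuron-like cells and at 0.938 and 0.799 CPM in IPC-like cells. The level in deep-layer neuron-like cells did not overlap with either. *Nrg4*, a ligand of ErbB4 best known from fat tissue, was found in few molecules, 177 UMIs in all barcodes of embryo 4 and 190 in embryo 5. Its subclass means lay between 0.715 and 2.67 CPM, mostly overlapped between neighbours, and passed none of the 7 comparisons in which it was tested.

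Among the receptors, *Erbb4* marked the interneurons. Interneuron-like cells were at 12864 (embryo 4) and 12440 CPM (embryo 5) and excitatory neuron-like cells at 17.1 and 7.77 CPM. RGC-like cells held 53.1 and 13.8 CPM and IPC-like cells 23.8 and 8.39 CPM. The interneuron-like values lay far above all of these, with a log2 fold change against excitatory neuron-like cells of 9.90 ± 0.72 (SE, n = 2, edgeR adjusted p = 2.4e-06). Interneuron-like cells held 86.4% and 88.0% of all *Erbb4* UMIs in kept cells, and all GABAergic-like clusters together 96.8% and 98.7%.

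The *Erbb4* level differed in steps among the GABAergic-like cells. MGE interneuron-like cells held 13609 and 12818 CPM, CGE interneuron-like cells 9594 and 10651 CPM, and LGE GABAergic-like cells 1863 and 2151 CPM. A cycling GABAergic-like cluster with *Dlx1* and *Dlx2*, genes of interneuron progenitors, among its leading genes held 325 and 280 CPM. No step overlapped between the embryos. After thinning to 2000 UMIs, an *Erbb4* UMI was still found in 100% of MGE interneuron-like cells of each embryo, in 85.0% and 92.0% of CGE interneuron-like cells, in 54.7% and 49.4% of LGE GABAergic-like cells and in 19% and 16.6% of the cycling cluster. The difference between MGE and CGE interneuron-like cells did not pass the test (log2 fold change 0.48 ± 0.48, SE, n = 2, edgeR adjusted p = 0.69), although it was called with no filter on low counts (edgeR adjusted p = 9.8e-07, log2 fold change 0.56, with a range of adjusted p up to 0.87 over the alternatives).

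Outside the GABAergic-like cells *Erbb4* was low, with the Cajal-Retzius-like cells and 1 RGC-like cluster, both described below, above the rest. Thinned shares were 5.61% and 2.55% in RGC-like, 4.08% and 1.28% in IPC-like and 3.35% and 1.24% in excitatory neuron-like cells. Of the classes that should lack the receptor, mural-like cells had 0 of 52 and 0 of 46 cells, which allows shares of up to 6.85% and 7.71% (exact 95% interval), and erythroid-like cells had 12.5% and 5.10% at unthinned medians of 3744 and 2934.5 UMIs. The erythroid-like UMIs lay in 1 of 2 clusters (17% and 6.94% of its thinned cells, against 0 of 36 and 0 of 26), a shallow one with *Sst* and genes of microglia among its leading genes. Whether the low progenitor and excitatory shares were expression or free RNA was not tested. In RGC-like, IPC-like, excitatory neuron-like and erythroid-like cells embryo 4 was higher than embryo 5. The single RGC-like cell with the most *Erbb4* held 105 UMIs. The difference between RGC-like and excitatory neuron-like cells did not pass the test (log2 fold change 1.24 ± 0.55, SE, n = 2, edgeR adjusted p = 0.065), and RGC-like cells were called higher in 3 of 11 alternatives, among them the fit with the embryo as a block (1.17, edgeR adjusted p = 0.0084). Over the alternatives the adjusted p ran from 0.0084 to 0.32.

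Cajal-Retzius-like cells, the early neurons of the marginal zone that make reelin, held all of *Nrg1* (3180 and 4354 CPM), *Nrg3* (2042 and 2094 CPM) and some *Erbb4* (151 and 85.1 CPM) in 70 and 62 cells. After thinning, 14 of 70 and 9 of 62 of them held an *Erbb4* UMI, with exact binomial intervals (95%) of 11.4% to 31.3% and 6.86% to 25.8%. The intervals of the erythroid-like cells were 7.45% to 19.3% and 1.68% to 11.5%, which overlap those in each embryo. The mural-like cells held none after thinning, and 4 and 2 UMIs before it. In embryo 5 the upper limit given above for mural-like cells also overlaps the Cajal-Retzius-like interval.

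*Egfr*, the receptor for EGF-type ligands, was found in progenitors at low levels. RGC-like cells held 18.4 and 15.3 CPM, IPC-like cells 8.21 and 12.3 CPM, interneuron-like cells 1.60 and 0.769 CPM and excitatory neuron-like cells 0.187 and 0.303 CPM. Excitatory neuron-like cells were lowest in both embryos. The log2 fold change against them was 5.89 ± 0.28 for RGC-like cells (SE, n = 2, edgeR adjusted p = 2.3e-08) and 5.19 ± 0.31 for IPC-like cells (edgeR adjusted p = 2.4e-07). Interneuron-like cells were also higher, by 2.18 ± 0.59 (edgeR adjusted p = 0.015), a difference that rests on 9 and 4 UMIs, was 1.33 without embryo 4 and was lost after thinning (edgeR adjusted p = 0.32, range over alternatives from 0.00057).

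The *Egfr* transcripts were spread unevenly among the progenitor clusters. An RGC-like cluster led by *Ano1*, *Ntn1* and *Fgf15* held 94.2 and 62.9 CPM. The main cycling RGC-like cluster, led by *Prc1* and *Top2a*, held 7.35 and 2.97 CPM, and the RGC-like cluster that was not cycling, led by *Tnc* and *Fabp7*, held 14.3 and 19.4 CPM. The *Fgf15* cluster had 11.63% and 11.98% of the RGC-like cells and 46.8% and 38.2% of their *Egfr* UMIs. Its *Erbb4* level, 182 and 54.6 CPM, was also the highest of the 3, and 15.4% and 7.95% of its thinned cells held an *Erbb4* UMI. Among IPC-like cells the cycling cluster held 14.02 and 28.6 CPM of *Egfr* and the other 6.26 and 5.77 CPM. The cycling GABAergic-like cluster held 62.9 and 28.6 CPM.

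**Figure D3:**
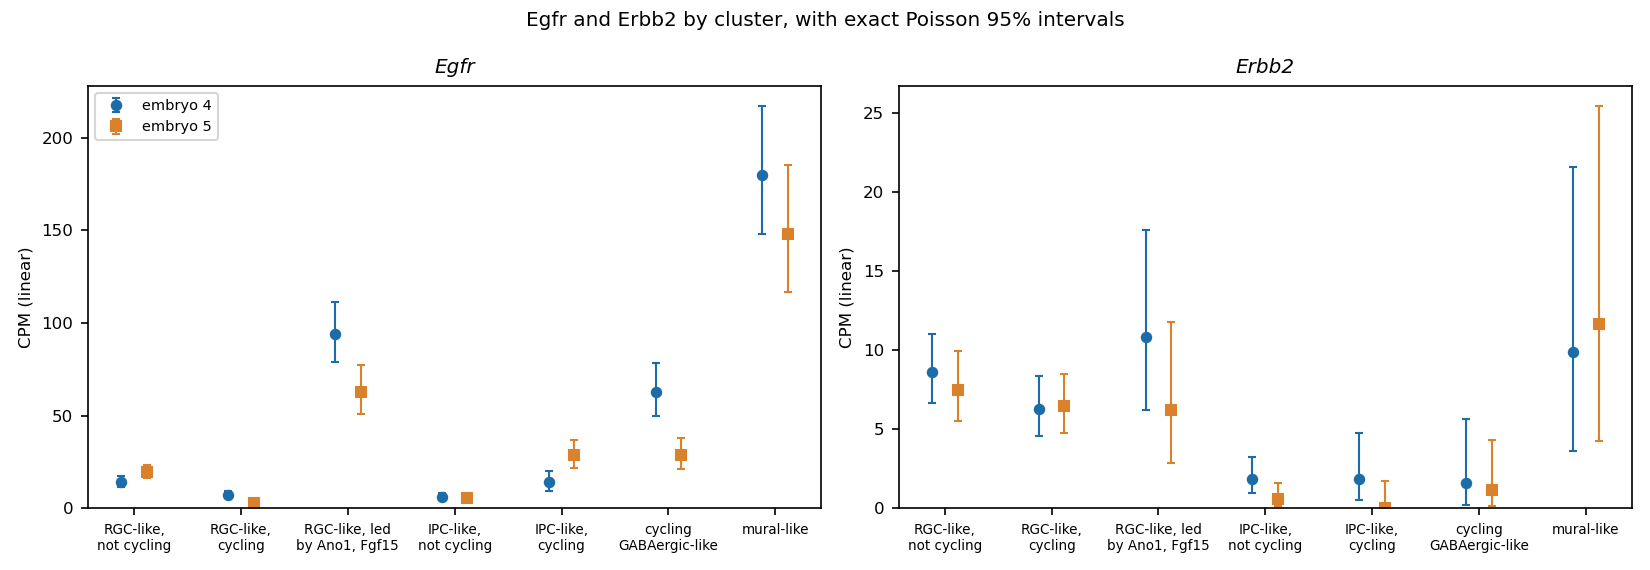
*Egfr* (left) and *Erbb2* (right) in CPM on linear y axes that start at 0, by cluster on the x axis, with 1 point per embryo and exact Poisson 95% intervals that cover counting error only. *Egfr* stands at 94.2 and 62.9 CPM in the RGC-like cluster led by *Ano1* and *Fgf15*, above the other RGC-like clusters, while the *Erbb2* intervals of the 3 RGC-like clusters overlap.

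*Erbb2*, the receptor without a ligand of its own, was highest among the neural classes in RGC-like cells. RGC-like cells held 7.76 and 6.88 CPM, from 125 and 107 UMIs, which were 79.1% and 79.9% of all *Erbb2* UMIs in kept cells. IPC-like cells held 1.88 and 0.400 CPM and excitatory neuron-like cells 0.0850 and 0.161 CPM. The RGC-like cells were above both in each embryo. Outside the neural classes, mural-like cells held 9.91 and 11.7 CPM from 6 UMIs in each embryo, and the fibroblast-like cells of embryo 5 held 11.3 CPM from 6 UMIs. The log2 fold change was 5.65 ± 0.47 against excitatory neuron-like cells (SE, n = 2, edgeR adjusted p = 1.8e-06) and 2.60 ± 0.46 against IPC-like cells (edgeR adjusted p = 0.0012). IPC-like cells were above excitatory neuron-like cells by 3.05 ± 0.65 (edgeR adjusted p = 0.0024), a call that was lost after thinning (edgeR adjusted p = 0.071, lowest over alternatives 0.00012). It rested on 16 and 3 UMIs in the IPC-like cells and became 1.29 without embryo 4, while the difference between RGC-like and IPC-like cells became 4.07.

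*Erbb3*, which needs a partner receptor to signal, was barely detected. All barcodes held 20 UMIs in embryo 4 and 26 in embryo 5, of which 9 and 19 were in kept cells. It did not pass the filter on low counts in any comparison. Of the 16 UMIs in excitatory neuron-like cells of embryo 5, 13 came from 1 cell. The transcript was at 0 UMIs in MGE interneuron-like cells of both embryos, where 3 UMIs would have given about 0.656 and 0.699 CPM.

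Counted over the 8 genes, each comparison of broad classes called 4 or 5 of 7 genes tested, *Erbb3* being the one left out. Interneuron-like against excitatory neuron-like cells gave 3 higher (*Erbb4*, *Egfr*, *Nrg2*) and 2 lower (*Nrg1*, *Nrg3*), where 17.3% of all 16076 genes were called higher and 22.2% lower. *Nrg1* was lower by a log2 fold change of -3.81 ± 0.18 (SE, n = 2, edgeR adjusted p = 7.6e-08), which became -1.95 when predicted doublets were kept. *Nrg2* was higher by 0.51 ± 0.14 (edgeR adjusted p = 0.015), and was not called by DESeq2 (adjusted p = 0.059, lowest over alternatives 0.0011).

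RGC-like against excitatory neuron-like cells gave 2 higher (*Egfr*, *Erbb2*) and 2 lower (*Nrg3*, *Nrg2*), where 35.7% of all genes were called higher and 35.9% lower. *Nrg3* was lower by -2.46 ± 0.10 and *Nrg2* by -2.19 ± 0.15 on the log2 scale (SE, n = 2, edgeR adjusted p = 7.1e-09 and 4e-07), and *Nrg1* did not pass (0.14 ± 0.15, edgeR adjusted p = 0.44). IPC-like against excitatory neuron-like cells gave 3 higher (*Egfr*, *Erbb2*, *Nrg1*) and 2 lower (*Nrg3*, *Nrg2*), where 28.9% were called higher and 29.8% lower. There *Nrg1* was higher by 1.31 ± 0.16 and *Nrg3* lower by -4.68 ± 0.11 (SE, n = 2, edgeR adjusted p = 4.7e-05 and 1.4e-09). The receptors *Egfr* and *Erbb2* were the members called higher in both progenitor classes, and *Nrg2* and *Nrg3* those called lower in both. These 3 comparisons share the excitatory neuron-like sums.

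RGC-like against IPC-like cells gave 4 higher (*Erbb2*, *Nrg2*, *Nrg3*, *Egfr*) and 1 lower (*Nrg1*), where 25.7% were called higher and 20.4% lower. *Nrg3* was higher by 2.22 ± 0.10 and *Nrg1* lower by -1.17 ± 0.16 (SE, n = 2, edgeR adjusted p = 1.2e-07 and 0.00019). *Egfr* was higher by 0.70 ± 0.22 (edgeR adjusted p = 0.026), or by 0.32 without embryo 4 and 1.17 without embryo 5. The *Egfr* call rested on the *Fgf15* cluster: without it the log2 fold change was 0.03 (edgeR adjusted p = 0.92).

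**Figure D4:**
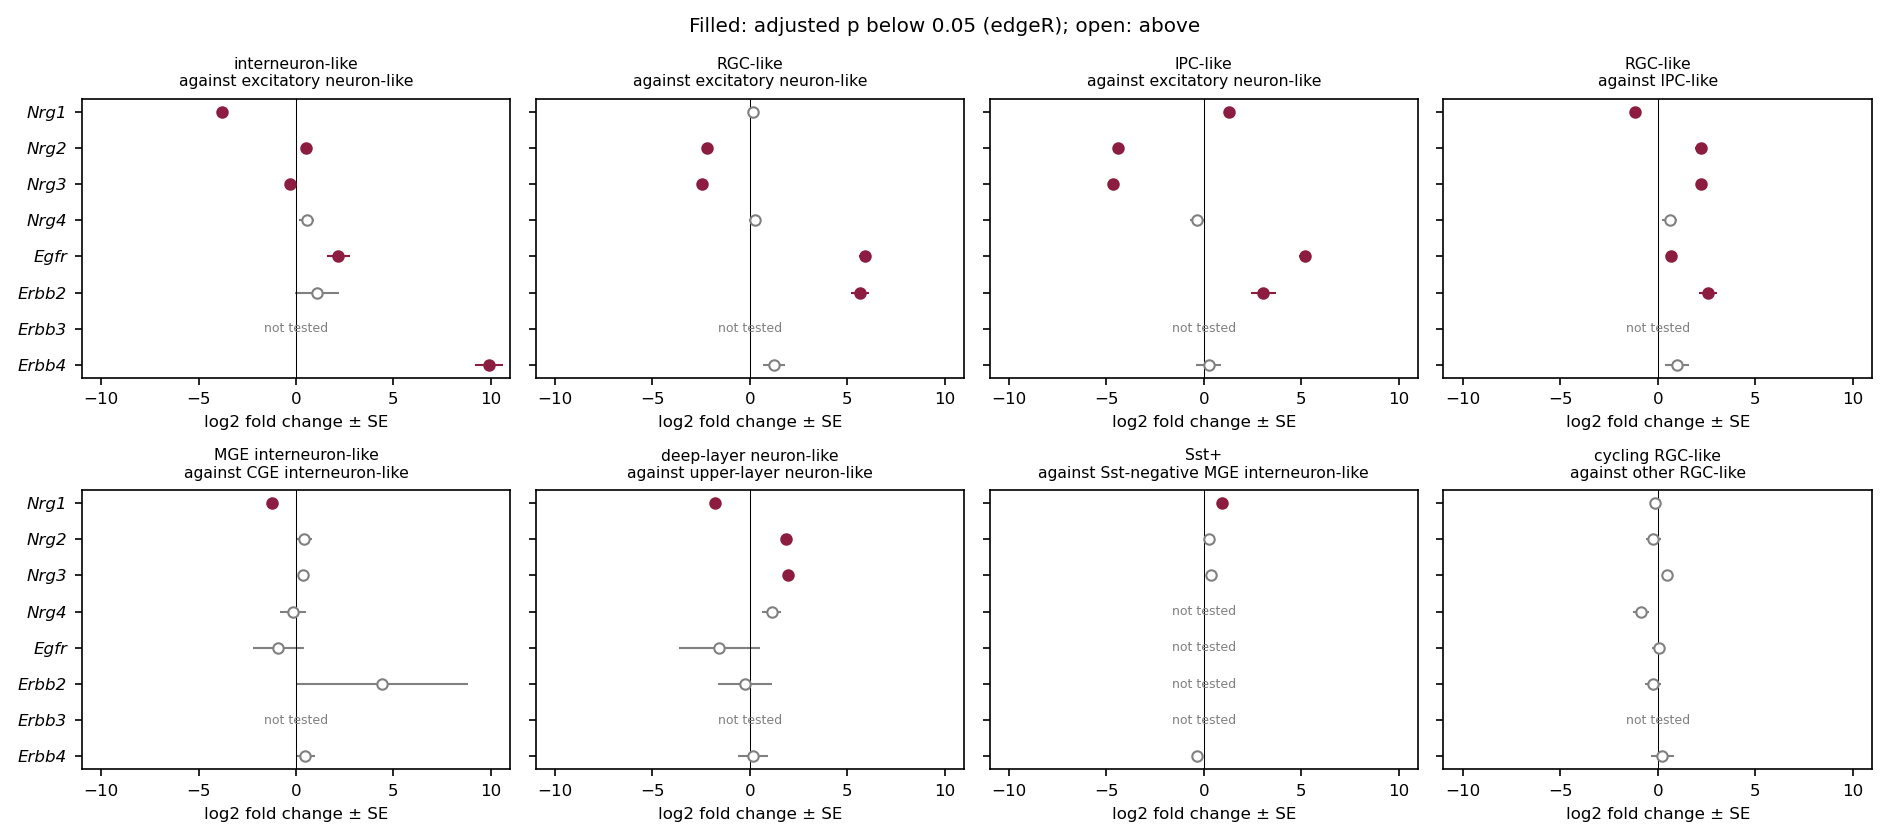
Log2 fold change (first class minus second) on the x axis for the 8 genes on the y axis in the 8 comparisons, with the SE as a bar and n = 2 embryos. Filled points had an edgeR adjusted p below 0.05, and the largest is *Erbb4* at 9.90 in interneuron-like against excitatory neuron-like cells.

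Cycling against other RGC-like cells gave no call among 7 members tested, where 6.49% of all genes were called higher and 3.53% lower, and 1 member (*Nrg3*) had an unadjusted p under 0.05. *Nrg3* was at 537 and 618 CPM in cycling and 364 and 469 CPM in other RGC-like cells (log2 fold change 0.50 ± 0.18, SE, n = 2, edgeR adjusted p = 0.083), and was called with the embryo as a block (edgeR adjusted p = 0.048), among 5 of 11 alternatives, with adjusted p from 2.1e-05 to 0.21. The *Egfr* comparison depended on where the *Fgf15* cluster fell. It was counted with the cycling cells, and *Egfr* was then at 0.05 ± 0.33 (edgeR adjusted p = 0.96). Without that cluster, *Egfr* was lower in cycling RGC-like cells by -1.66 ± 0.41 (edgeR adjusted p = 0.0089), and it was called lower in 4 of the other alternatives as well, from -2.30 to -1.60.

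Between interneuron subtypes the one member called was *Nrg1*. MGE against CGE interneuron-like cells gave 0 higher and 1 lower, where 4.41% of all genes were called higher and 3.29% lower. *Nrg1* was at 182 and 150 CPM in MGE and 597 and 234 CPM in CGE interneuron-like cells (log2 fold change -1.22 ± 0.25, SE, n = 2, edgeR adjusted p = 0.0021). The embryos did not overlap, but the CGE interneuron-like cells of embryo 4 stood apart, and without that embryo the log2 fold change was -0.64. The direction turned to 0.76 (edgeR adjusted p = 0.021) when predicted doublets were kept. *Nrg1* in these cells was low against the 2919 and 2672 CPM of excitatory neuron-like cells. Mural-like cells held less (66.1 and 21.4 CPM), but erythroid-like cells held 599 and 602 CPM, above the MGE and CGE values of each embryo. Of the erythroid-like clusters, the cycling one held 1222 to 1275 CPM and the shallow one 32.7 to 86.0 CPM. The cycling one also scored 0.691 as IPC, next to 0.758 as erythroid. How far RNA from other cells entered the interneuron-like values was not tested.

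The MGE interneuron-like cells were also split by whether a cell held an *Sst* UMI, *Sst* being the gene for somatostatin. *Sst*+ cells numbered 264 and 269, with median depths of 8001 and 7078 UMIs, against 408 and 376 *Sst*-negative cells with 5419 and 5913 UMIs, so the split also separates deeper from shallower cells. Of the *Sst*+ cells 73 and 52 held a single *Sst* UMI. The gene was detected in 39.3% and 41.7% of MGE interneuron-like cells, against 4.79% and 2.27% of excitatory neuron-like cells (median depths of 10917 and 9466.5 UMIs), 0 of 52 and 4 of 46 mural-like cells and 11.4% and 7.69% of erythroid-like cells. How far such UMIs entered the split was not tested. The split gave 1 higher member of 4 tested and 0 lower, where 3% of all 10867 genes were called higher and 1.31% lower. *Nrg1* was at 222 and 218 CPM in *Sst*+ and 146 and 88.3 CPM in *Sst*-negative cells (log2 fold change 0.91 ± 0.16, SE, n = 2, edgeR adjusted p = 0.002), a call lost after thinning (edgeR adjusted p = 0.16) and with doublets kept (-0.37, edgeR adjusted p = 0.41). Without embryo 5 the value was 0.60. *Erbb4* was at 11535 and 11446 CPM in *Sst*+ and 15511 and 14061 CPM in *Sst*-negative cells. The embryos did not overlap, yet the difference did not pass (log2 fold change -0.36 ± 0.12, edgeR adjusted p = 0.12), and it was called by DESeq2 (adjusted p = 0.015) and with no filter on low counts (edgeR adjusted p = 0.0019, highest over alternatives 0.46). *Nrg3*, at 2414 and 2527 CPM against 2136 and 1733 CPM, did not pass (0.36 ± 0.12, edgeR adjusted p = 0.12) and was called with the embryo as a block (edgeR adjusted p = 0.036, range over alternatives from 0.024 to 0.39).

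Many single interneuron-like cells held receptor and ligand together, at about the rate that the separate shares give. In MGE interneuron-like cells, where every thinned cell held *Erbb4*, the joint share is the *Nrg3* share by construction. After thinning to 2000 UMIs, *Erbb4* and *Nrg3* were both found in 65.3% of interneuron-like cells of embryo 4 and 68.6% of embryo 5, against 64.1% and 67.8% given by the product of their separate shares. Among excitatory neuron-like cells, *Nrg1* and *Nrg3* were both found in 38.3% and 34.4%, below the products of 45.9% and 43.2%. In RGC-like cells both ligands were found in 36.4% and 40.7%, above the products of 32.8% and 37.5%. The joint shares thus went below the product in excitatory neurons and above it in RGC-like cells in both embryos, which is given as a description without a test.

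A list of 24 other genes of the pathway was measured alongside, of which 20 passed the filter on low counts in the broad and subclass fits. It held other EGF-family ligands, proteases that shed them, adaptors and attenuators of the receptors. In interneuron-like against excitatory neuron-like cells 6 of the 20 were higher and 6 lower, against 17.3% and 22.2% of all genes (median log2 fold change of the list 0.19, of all genes -0.01). *Lrig3*, of a family of receptor attenuators, was higher by 2.24 ± 0.49, *Hbegf*, a ligand of the EGF receptor, by 0.99 ± 0.17, and *Tgfa*, another such ligand, was lower by -1.10 ± 0.33 (SE, n = 2, edgeR adjusted p = 0.0045, 0.00098 and 0.022). *Hbegf* was at 11.8 and 11.3 CPM in interneuron-like and 5.42 and 5.50 CPM in excitatory neuron-like cells.

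In progenitors the list split in both directions. RGC-like against excitatory neuron-like cells had 7 of the 20 higher and 9 lower, against 35.7% and 35.9% of all genes (median -0.12, all genes 0.00), and IPC-like cells 6 higher and 9 lower, against 28.9% and 29.8% (median -0.21, all genes 0.00). Of the 6 attenuators, 2 were higher and 3 lower in RGC-like cells (median -0.24), and 1 was higher and 3 lower in IPC-like cells (median -0.23). *Lrig1*, an attenuator which lowers the amount of ErbB receptor at the membrane, was at 57.4 and 56.7 CPM in RGC-like, 34.7 and 29.7 CPM in IPC-like and 4.01 and 4.45 CPM in excitatory neuron-like cells. Against excitatory neuron-like cells it was higher by 3.56 ± 0.10 (RGC-like) and 2.78 ± 0.11 (IPC-like) (SE, n = 2, edgeR adjusted p = 8.4e-10 and 1.7e-08). *Adam19*, a protease that can shed neuregulins, was lower in both, by -2.96 ± 0.12 and -2.85 ± 0.14 (edgeR adjusted p = 8e-09 and 6.5e-08). *Lrig3* was higher in RGC-like cells by 2.39 ± 0.41 and *Hbegf* lower in IPC-like cells by -2.28 ± 0.24 (edgeR adjusted p = 0.00038 and 1.6e-05).

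Between the other classes the list had calls in both directions. RGC-like against IPC-like cells had 5 of 20 higher and 6 lower, against 25.7% and 20.4% of all genes (median -0.07, all genes 0.05). The largest called changes were those of *Pik3r1*, a regulatory subunit of PI3-kinase, at -2.20 ± 0.08, *Lrig3* at 1.47 ± 0.49 and *Hbegf* at 1.47 ± 0.27 (SE, n = 2, edgeR adjusted p = 4.4e-08, 0.031 and 0.0013). Deep-layer against upper-layer neuron-like cells had 6 of 20 higher and 4 lower, against 17.8% and 15% of all genes (median -0.05, all genes 0.03). *Erbin*, a scaffold that binds ErbB2, was at 12.1 and 10.2 CPM in deep-layer and 70.7 and 75.8 CPM in upper-layer neuron-like cells (log2 fold change -2.61 ± 0.10, edgeR adjusted p = 3.3e-14), while *Lrig1* was higher by 1.73 ± 0.27 and *Cblb*, a ubiquitin ligase, by 1.68 ± 0.10 (edgeR adjusted p = 2.6e-05 and 3.8e-11). MGE against CGE interneuron-like cells had 1 higher (*Hbegf*, 1.43 ± 0.37) and 2 lower (*Pik3r1*, -1.94 ± 0.18; *Gab1*, an adaptor, -0.85 ± 0.20), with edgeR adjusted p = 0.017, 1.2e-07 and 0.0094, where 4.41% and 3.29% of all genes were called (median 0.08, all genes 0.06). Cycling against other RGC-like cells had 1 higher (*Cbl*, a ubiquitin ligase, 0.44 ± 0.10, edgeR adjusted p = 0.0043) and 0 lower of 20, where 6.49% and 3.53% of all genes were called (median 0.02, all genes -0.05). The *Sst* split had 0 of 17 tested in either direction, where 3% and 1.31% were called (median -0.14, all genes 0.01).

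The genes most like each member were sought by Pearson's r of log2(CPM + 10) over the 12 neural subclasses, among 6090 genes that reached 50 CPM in a subclass. For *Nrg3* these were *Gm20642* (r = 0.991) and *Nrg3os* (r = 0.988), followed by *Lrch1* (r = 0.925). *Gm20642* and *Nrg3os* lie inside the *Nrg3* span, at chr14:39214826-39249746 and chr14:38898302-38958794, but on the opposite strand in the annotation. Whether any reads were shared between these overlapping genes was not tested. For *Erbb4* they were *Fam222a* (r = 0.978), *Gm14204* (r = 0.973) and *Slc32a1* (r = 0.973), the vesicular transporter for GABA and a marker used to name the clusters. For *Nrg1* they were *Pdia6* (r = 0.953), *Lhx2* (r = 0.951) and *Imp3* (r = 0.946), and for *Nrg2* *Abi2* (r = 0.957), *Asic2* (r = 0.936) and *Grik3* (r = 0.935). The 12 subclasses share 2 libraries, and the values are a description. *Egfr*, *Erbb2*, *Erbb3* and *Nrg4* stayed under 50 CPM in every neural subclass, where likeness rests on few UMIs, and their most similar genes are not given.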

How the data were processed

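Per the labels, the authors dissociated cortex with papain and prepared 10x Genomics single cell 3' v3.1 libraries. They deposited UMI counts, not normalized, for each gene in each barcode, made with Cell Ranger on mm10, with version 7.0.0 in the submitters' processing notes and 7.1.0 in the file headers. No normalization and no cell annotation was used from the files.

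Barcodes entered with 1000 or more genes detected and no more than 10% of UMIs from mitochondrial genes. Predicted doublets, 947 and 1052 cells by simulated doublets at 0.8% per 1000 cells, were removed. Cells were clustered on 2000 variable genes, 30 components and 20 neighbours (leidenalg 0.10.2, resolution 1), leaving out the 8 genes and the 24 pathway genes. Clusters were named from marker lists, and the scoring rule (mean marker position of at least 0.5 between the lowest and the highest cluster, at least 3 markers detected in 10% of cells) was set after seeing the clusters. The RGC-like, IPC-like and excitatory neuron-like classes include clusters with no class marker among their 10 leading genes.

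UMIs were summed per embryo and class. edgeR 4.0.16 (R 4.3.3; TMM, filterByExpr, quasi-likelihood) was fitted over 8 sums of broad classes, 24 sums of subclasses and 4 sums for the *Sst* split, with Benjamini-Hochberg adjustment over all genes tested and calls at an adjusted p under 0.05. Standard errors were derived from F. Sums of an embryo come from 1 animal and are paired by it, and their deviations correlated across genes at 0.0639 to 0.218 over the 8 comparisons. Simulated counts with known changes were used to try the test. The block, DESeq2 1.42.0 and its size factors, no filter, only the compared classes, thinning, other cell filters, doublets kept, other resolutions and each embryo left out were the alternatives, and leaving out the *Fgf15* cluster was added after seeing the data.

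Named genes are the 8 members, the 3 pathway genes with the largest called change per comparison and the 3 genes most like each member. The members and lists were chosen with earlier results of these data known. Intervals are exact at 95% and cover counting error only. The coordinates are those of RefSeq's GRCm38.p6 table, and strands those of GENCODE.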

Additional observations from a re-analysis of the deposited data

Results flagged for a closer look

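Some signal lay in cells that no comparison used. *Egfr* was at 164 CPM on average in mural-like cells (180 CPM in embryo 4 and 148 CPM in embryo 5, from 109 and 76 UMIs in 52 and 46 cells), with a UMI in 67.3% and 52.2% of the cells. It was also at 92.2 CPM in the 47 fibroblast-like cells of embryo 5, and embryo 4 had 1 such cell. *Nrg1* was at 3767 CPM and *Nrg3* at 2068 CPM on average in Cajal-Retzius-like cells. These values were picked for listing and not by a test. Each rests on more than 3 UMIs, a low bar, in cells that were on neither side of a comparison. The Cajal-Retzius-like sums were still part of the fit over 12 neural subclasses.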

How the results depend on the processing

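Of 527 values of single members recomputed with a test under the alternatives, 494 kept their side of the threshold, and 22 of these, never past it, changed sign. A further 106 values with an embryo left out have no test, and 7 of them, of members that were not called, changed sign. With doublets kept, *Nrg1* reversed to 0.76 in MGE against CGE interneuron-like cells and to -0.37 in *Sst*+ against *Sst*-negative cells. In cycling against other RGC-like cells, *Egfr* went from 0.05 to -1.60 at resolution 0.5, -2.26 at resolution 2, -1.97 with at least 2000 detected genes, -2.30 with doublets kept and -1.66 without the *Fgf15* cluster. Only the last of these settings took out the *Fgf15* cluster alone, and the cause of the other changes was not tested.

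Thinning to 2000 UMIs, which leaves fewer counts, lowered the genes called to 4158 (from 6355) for interneuron-like against excitatory neuron-like cells, 6248 (from 9431) for IPC-like against excitatory neuron-like, 4522 (from 7414) for RGC-like against IPC-like, 727 (from 1251) for MGE against CGE, 2623 (from 5327) for deep-layer against upper-layer, 106 (from 468) for the *Sst* split and 732 (from 1627) for cycling RGC-like cells. The members called changed to 3 (from 5) in the first of these, to 4 (from 5) for IPC-like against excitatory neuron-like cells and to 0 (from 1) in the *Sst* split. With the replicate block, which pairs the sums of an embryo, the *Sst* split had 849 genes and 2 members called, and cycling RGC-like cells 2452 genes and 1 member. Beside these and the RGC-like *Erbb4* call given above, the block changed no call of a member. DESeq2 gave 202 genes and 2 members for the *Sst* split, and with no filter on low counts 3 members were called there, 3 for MGE against CGE (from 1) and 1 for cycling RGC-like cells (from 0). Doublets kept gave 0 members in the *Sst* split. For cycling RGC-like cells, 2727 genes and 2 members were called at resolution 0.5, 1 member at resolution 2, 1 with at least 2000 detected genes, 3257 genes and 2 members with doublets kept, and 2 members without the *Fgf15* cluster. Where only members are counted, the calls over all genes are not set beside them. Such counts cannot tell a change of the members from a general change in calls. Leaving out either embryo gives values with no test, and no called member changed sign. With 2 embryos, and few UMIs of *Erbb3*, *Nrg4* and *Erbb2*, small differences of these genes could not be seen at this depth.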

Other observations

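The unnamed cluster led by *Tfap2d* and *Nr2f2* held 3826 and 3471 CPM of *Nrg1*, 1073 and 1026 CPM of *Nrg3* and 65.8 and 25.5 CPM of *Erbb4*. A small excitatory neuron-like cluster of shallow cells (82 and 63 cells, medians of 3363.5 and 3338 UMIs) held 4314 and 4107 CPM of *Nrg1*, above the other clusters without a layer, which lay between 425 and 1366 CPM.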
